A study of Mus musculus with 18 samples.

Results

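The genes described here are 10 regulators of mitogen-activated protein kinase (MAPK) signaling, chosen by symbol from the 22708 genes of the deposited table. They are 7 MAPK phosphatases (*Dusp1*, *Dusp2*, *Dusp4*, *Dusp5*, *Dusp6*, *Dusp10* and *Dusp16*) and the 3 GADD45 genes (*Gadd45a*, *Gadd45b* and *Gadd45g*). MAPK cascades pass signals from cytokine receptors and from cell stress through MAP3 kinases and MAP2 kinases to ERK, JNK and p38. The dual-specificity phosphatases remove phosphate from both the threonine and the tyrosine that keep a MAPK active, and several are themselves transcribed in response to the kinase they switch off. GADD45 proteins are small stress-induced proteins that bind and activate the kinase MEKK4 upstream of JNK and p38 and also bind cell cycle proteins. In eosinophils, ERK and p38 are known to act downstream of interleukin-5 and chemokine receptors.

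RNA of small intestinal eosinophils was sequenced in bulk in 18 libraries. Of these, 6 were labelled wildtype (WT), 6 were labelled *Ahr*-/-, for the gene of the aryl hydrocarbon receptor (AHR), and 6 were labelled *Ahrr*-/-, for the gene of the AHR repressor. Each genotype had 3 males and 3 females of strain C57/BL6, and the labels give neither an age nor a treatment. Cells were enriched with CD11b beads and sorted as CD11b+, MHC-II-, SiglecF+ and SSChi. According to the methods, mice lacking *Ahr* and WT mice came from separate litters and cages, so litter and housing cannot be told apart from genotype here. The authors deposited variance-stabilized values on a log2 scale, whose minimum, 5.021, means that no read was counted. This scale understates the differences of genes with low counts, so ratios of mean normalized counts (counts divided by the size factor of each library) are given beside the log2 differences of the called genes among the 10 and of some others with low counts.

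Depth differed between the groups. The total count per library lay between 3842977 and 8149200 in WT, with a median of 6022410. It lay between 6581818 and 10284124 in the libraries labelled *Ahr*-/- (median 9647590), and between 8788867 and 12046933 in those labelled *Ahrr*-/- (median 10371556). A pair of libraries stood apart in the number of genes with at least 1 count, which was 20244 in WT F3, the shallowest library, and 19694 in *Ahr*-/- F3. The other 16 libraries lay between 15146 and 17236 genes. Differences of the 10 genes between the *Ahr*-/- label and WT are therefore also given without these F3 libraries, an alternative chosen after seeing the data.

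The transcripts of the targeted genes were read first. *Ahr* ran from 13.40 to 14.40 (median 13.76) in WT, from 14.15 to 14.67 (median 14.55) in the libraries labelled *Ahr*-/- and from 13.03 to 14.42 (median 13.51) in those labelled *Ahrr*-/-. *Ahrr* ran from 9.79 to 10.39 (median 10.12) in WT, from 5.021 to 5.79 (median 5.25) in the libraries labelled *Ahr*-/- and from 9.95 to 10.93 (median 10.37) in those labelled *Ahrr*-/-. Neither transcript was lower than WT in the libraries labelled as its own knockout. The *Ahr* difference between the *Ahr*-/- label and WT was 0.61 (standard error, SE, 0.19, limma adjusted p = 0.0557), and the *Ahrr* difference between the *Ahrr*-/- label and WT was 0.28 (SE 0.18, limma adjusted p = 0.683). Reads summed along an entire gene cannot check such a label without knowledge of the exons removed, so the genotypes are used as labelled. *Ahrr*, which AHR is known to induce, had 14 counts in all across the 6 libraries labelled *Ahr*-/- and was lower there than in every WT library, with a difference of -4.83 (SE 0.14, limma adjusted p = 4.95e-12).

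The cell label was compared with 10 eosinophil markers. The surface receptors *Ccr3*, *Siglecf* and *Il5ra* were abundant, with mean normalized counts of 12434, 2036 and 2133 in WT. Transcripts of granule proteins were scarce. *Epx* had a mean normalized count of 10.9 in WT, *Prg3* had 1.29 and *Ear6* had 0.344, whereas *Prg2* had 76.9. The most abundant marker of the list was *Alox15*. The sum of the list lay between 24866 and 38211 normalized counts in WT, between 38503 and 49555 in the libraries labelled *Ahr*-/- and between 14322 and 38775 in those labelled *Ahrr*-/-. In bulk samples, fewer cells of a type and less RNA per cell cannot be told apart.

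Markers of other cell types were also present. Goblet and Paneth cell markers, with *Lyz1* the most abundant over all libraries, summed to 6628 to 19637 normalized counts in WT, 4775 to 9653 in the libraries labelled *Ahr*-/- and 9272 to 62414 in those labelled *Ahrr*-/-. Enterocyte markers, led by *Krt8*, summed to 2565 to 9992 in WT, 1870 to 4928 in the *Ahr*-/- label and 2956 to 16064 in the *Ahrr*-/- label. The epithelial sums were highest in *Ahrr*-/- M1, M3 and F3. Neutrophil markers summed to 23736 to 48579 in WT, 54977.5 to 113331 in the *Ahr*-/- label and 23838 to 44982 in the *Ahrr*-/- label. Nearly all of that sum was *Retnlg*, whose mean was 35077 in WT and 81840.5 in the *Ahr*-/- label. In the same order, means were 102 and 199 for *S100a8*, 189 and 338 for *S100a9* and 2.06 and 17.0 for *Camp*. *Ltf* (14.8 and 28.9) and *Ngp* (23.1 and 42.1) were also higher in the *Ahr*-/- label. Lower there were *Mpo* (6.54 and 1.57) and the defining neutrophil gene *Ly6g* (1.38 and 1.10), and *Elane* had 0 counts in both groups. The *Ahrr*-/- label had 642 for *S100a8*, 1031 for *S100a9*, 33.9 for *Camp*, 43.8 for *Ltf* and 79.2 for *Ngp*, above both other groups. Its means were 33082 for *Retnlg*, 2.46 for *Mpo*, 1.96 for *Ly6g* and 1.43 for *Elane*. Acinar markers, led by *Ctrb1*, summed to 49.1 to 3540 in WT, 32.9 to 452 in the *Ahr*-/- label and 79.5 to 1962 in the *Ahrr*-/- label. Sums over B and plasma cell markers were 229 to 1775, 96.1 to 740.4 and 333 to 6045 in the same order, led by *Jchain*. Sums over macrophage and dendritic cell markers, led by *Cd74*, were 1883 to 4341, 1418 to 6402 and 1562 to 9489.

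The endothelial list summed to 2568 to 3803 in WT, 1871 to 2329 in the *Ahr*-/- label and 1738 to 3810 in the *Ahrr*-/- label, almost entirely from *Pecam1*. Fibroblast markers, led by *Col3a1*, summed to 49.8 to 202 in WT, 57.8 to 99.3 in the *Ahr*-/- label and 37.7 to 1626 in the *Ahrr*-/- label. T cell and innate lymphocyte markers (*Cd3e* the most abundant) summed to at most 130.1 in any library, and mast cell markers (*Cpa3* the most abundant) to at most 147. The part of these cells in the results on the 10 genes was not tested.

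The levels of the 10 genes were compared per length, as normalized counts per kilobase of the principal transcript. *Dusp1*, which encodes the founding nuclear MAPK phosphatase, was the most abundant at 10302 ± 1350 (SD, n = 6) in WT, and *Gadd45a* followed at 1808 ± 642 (SD, n = 6). Both stood apart from the next gene in the order. *Dusp16* (350 ± 137, SD, n = 6), *Gadd45b* (325 ± 207), *Dusp5* (281 ± 49.1) and *Dusp6* (187 ± 47.3) formed a middle range in which each neighbor overlapped the next. *Dusp2* (51.7 ± 30.5, SD, n = 6), *Gadd45g* (25.3 ± 6.78), *Dusp10* (24.98 ± 8.54) and *Dusp4* (6.83 ± 6.49) were lowest, and neighbors among them overlapped as well. *Dusp4* had between 2 and 23 counts in the WT libraries and lay below the minimum mean needed for a test in every comparison but the one of WT with the *Ahrr*-/- label.

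In the libraries labelled *Ahr*-/- the order per kilobase again began with *Dusp1* (15447 ± 4705, SD, n = 6), *Gadd45a* (3044 ± 1066) and *Dusp16* (766 ± 257). *Gadd45b* (561 ± 459), *Dusp6* (349 ± 41.9), *Dusp5* (271 ± 78.7), *Gadd45g* (202 ± 100.2), *Dusp2* (93.7 ± 72.5) and *Dusp10* (50.8 ± 19.0) followed, each overlapping its neighbor, and *Dusp4* was last at 4.34 ± 1.87. In the libraries labelled *Ahrr*-/- the order was *Dusp1* (11575 ± 5237, SD, n = 6), *Gadd45a* (1587 ± 580.3), *Gadd45b* (396 ± 257), *Dusp16* (310.1 ± 210.2), *Dusp5* (283 ± 75.4), *Dusp6* (195 ± 50.9), *Dusp2* (89.0 ± 44.0), *Gadd45g* (44.1 ± 14.3), *Dusp10* (29.4 ± 13.7) and *Dusp4* (7.51 ± 4.50). There, *Dusp1* and *Gadd45a* stood apart from the genes after them, and *Dusp10* from *Dusp4*. Among neighbors, the other pairs overlapped. Both knockout labels and WT thus shared the first pair of genes and the last gene, as the plot of levels per kilobase shows.

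**Figure D1:**
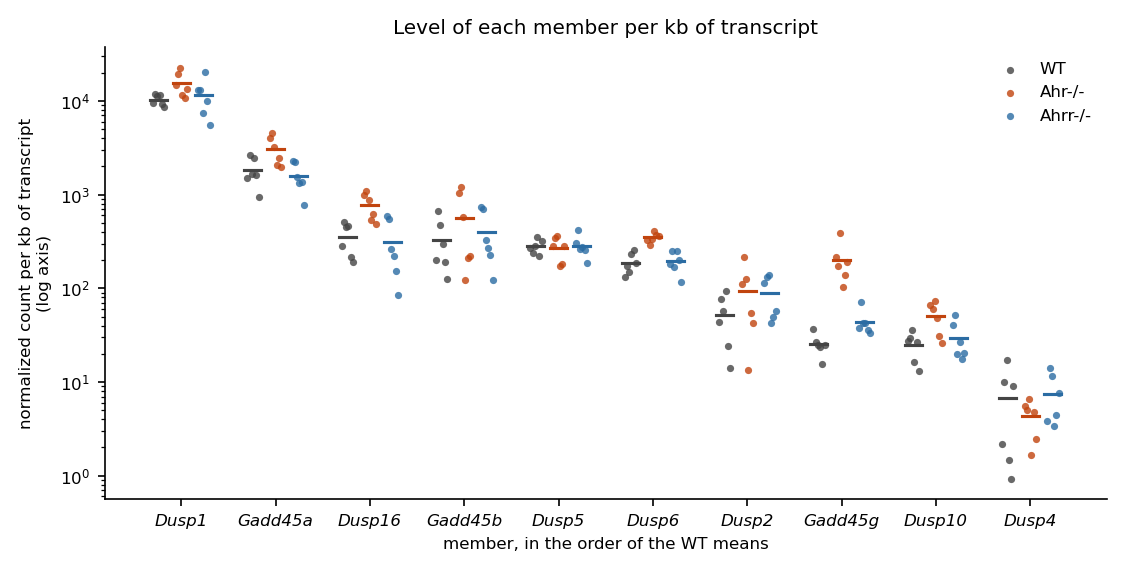
Normalized counts per kilobase of the 10 genes (log axis) in the WT, *Ahr*-/- and *Ahrr*-/- labels, with 1 point per library. *Dusp1* lies highest (mean 10302 in WT) and *Dusp4* lowest (6.83), and *Gadd45g* is the gene whose *Ahr*-/- libraries lie farthest above the WT ones (means of 202 and 25.3).

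Promoter sequences show which of the genes carry the core letters of the AHR response element near their start. RefSeq promoters of GRCm38.p6, 250 bases before to 50 after the start, were found for 9 of the 10 genes, all but *Dusp4*. The motif GCGTG, searched on both strands, was in 32.4% of all 32851 promoters of the same length and in 3 of the 9. *Dusp2* had 1 match, at -189 from the start, *Dusp5* had matches at -248 and -111, and *Gadd45b* had matches on the other strand at -209 and -68. The longer TNGCGTG, which contains GCGTG, was in 5.07% of all promoters and in none of the 9. The 3 genes with the largest differences in the *Ahr*-/- label, *Dusp6*, *Dusp16* and *Gadd45g*, are printed with *Dusp5* and *Gadd45b*, the genes with a pair of matches each. Capitals mark GCGTG, or CACGC where it reads on the other strand. The windows are chr10:99262981-99263280 (+) for *Dusp6*, chr6:134792579-134792878 (-) for *Dusp16*, chr13:51846425-51846724 (+) for *Gadd45g*, chr19:53528895-53529194 (+) for *Dusp5* and chr10:80929841-80930140 (+) for *Gadd45b*.
Dusp6: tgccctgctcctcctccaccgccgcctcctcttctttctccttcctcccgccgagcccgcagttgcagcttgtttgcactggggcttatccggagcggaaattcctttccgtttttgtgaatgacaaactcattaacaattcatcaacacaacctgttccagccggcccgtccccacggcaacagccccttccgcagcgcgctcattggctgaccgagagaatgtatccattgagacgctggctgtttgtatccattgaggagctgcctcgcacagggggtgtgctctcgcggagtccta
Dusp16: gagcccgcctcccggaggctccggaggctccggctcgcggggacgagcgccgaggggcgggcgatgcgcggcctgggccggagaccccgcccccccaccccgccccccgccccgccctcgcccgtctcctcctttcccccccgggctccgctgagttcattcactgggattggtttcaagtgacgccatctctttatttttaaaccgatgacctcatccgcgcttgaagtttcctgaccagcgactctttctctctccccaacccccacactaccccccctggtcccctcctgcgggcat
Gadd45g: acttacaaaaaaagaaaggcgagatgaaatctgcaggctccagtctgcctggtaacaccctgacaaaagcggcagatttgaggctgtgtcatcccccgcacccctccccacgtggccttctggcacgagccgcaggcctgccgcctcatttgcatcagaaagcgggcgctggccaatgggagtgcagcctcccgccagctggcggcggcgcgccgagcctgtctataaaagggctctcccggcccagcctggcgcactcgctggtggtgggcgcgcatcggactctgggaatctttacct
Dusp5: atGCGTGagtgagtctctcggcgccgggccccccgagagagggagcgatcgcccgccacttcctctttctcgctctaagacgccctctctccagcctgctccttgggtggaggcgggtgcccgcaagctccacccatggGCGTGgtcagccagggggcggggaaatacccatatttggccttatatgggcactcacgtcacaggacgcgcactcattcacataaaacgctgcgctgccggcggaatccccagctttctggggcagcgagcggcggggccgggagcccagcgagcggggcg
Gadd45b: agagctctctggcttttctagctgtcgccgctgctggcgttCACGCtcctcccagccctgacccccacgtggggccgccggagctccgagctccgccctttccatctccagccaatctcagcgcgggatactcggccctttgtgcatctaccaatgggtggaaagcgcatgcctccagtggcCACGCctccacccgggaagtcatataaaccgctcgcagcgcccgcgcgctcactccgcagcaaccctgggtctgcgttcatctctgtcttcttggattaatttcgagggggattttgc
The *Dusp16* window belongs to a start inside the annotated gene and not at its outer end. A match is a description of letters and not a bound site, and a window without one says nothing about the factor.

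Motifs of factors that MAPK signaling is known to activate were searched the same way. The AP-1 motif TGACTCA was in 5.202% of all promoters and in none of the 9. The CREB motif TGACGTCA was in 1.79% of all promoters and, among the 9, in that of *Dusp1*, at -143. The CArG box of serum response factor was in 1.63% of all promoters and, among the 9, in that of *Dusp5*, at -82 and -72. The NF-kappaB site was in 4.51% of all promoters and in none of the 9.

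The comparison of the *Ahr*-/- label with WT asked how these genes differ when AHR is lacking. Of the 10 genes, 9 could be tested and 5 rose in the libraries labelled *Ahr*-/-, in both families. The stress sensor *Gadd45g* rose most, from a mean normalized count of 27.1 to 217, a 7.99-fold ratio. The JNK and p38 phosphatases *Dusp16* and *Dusp10* rose 2.19-fold and 2.03-fold, the ERK phosphatase *Dusp6* rose 1.87-fold, and *Gadd45a* rose 1.68-fold. None fell. Across all 11346 genes tested, 8.84% were called at an adjusted p below 0.05 by limma with sex in the model, and 5.16% were called higher in the *Ahr*-/- label. Of the 9 tested, 8 differences were positive and the median was 0.65, against a median of -0.0041 over all genes tested.

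Among the nuclear, inducible phosphatases, *Dusp1* (chromosome 17, 26505591 to 26508472), which acts mainly on p38 and JNK, lay between 14.06 and 14.51 (median 14.34) in WT and between 14.38 and 15.46 (median 14.78) in the *Ahr*-/- label. The groups overlapped, although 4 of the 6 libraries labelled *Ahr*-/- lay above every WT library. Its difference of 0.54 (SE 0.17) did not pass, with an adjusted p of 0.0581 from limma. The result depended on the setting. It passed without WT M1 (adjusted p = 0.0258), with limma voom on the recovered counts (0.0128), without a trend (0.0267), with a robust trend (0.0391) and with a minimum mean of 3 (0.0359). Without both F3 libraries it moved away from the threshold (difference 0.45, adjusted p = 0.204), and the highest adjusted p of any alternative was 0.281. *Dusp2* (chromosome 2, 127336159 to 127338377), an early gene of activated leukocytes, differed by 0.46 (limma adjusted p = 0.331), by 0.72 without WT M1 (adjusted p = 0.0399) and by 0.39 without both F3 libraries (0.528). *Dusp5* (chromosome 19, 53529145 to 53541809), which dephosphorylates and anchors ERK in the nucleus, differed by -0.08 (95% interval -0.42 to 0.26, limma adjusted p = 0.803). The sign of *Dusp5* turned without WT M1 or *Ahr*-/- M1, where its highest value was 0.0149, and without both F3 libraries the difference was -0.16 (adjusted p = 0.659). *Dusp4* (chromosome 8, 34807610 to 34819894), a nuclear phosphatase of ERK and JNK, lay between 5.42 and 6.67 in WT and between 5.56 and 6.07 in the *Ahr*-/- label and was not tested.

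*Dusp6* (chromosome 10, 99263231 to 99267489), the cytoplasmic phosphatase specific for ERK, lay between 8.75 and 9.59 (median 9.14) in WT and between 9.76 and 10.23 (median 10.03) in the *Ahr*-/- label. All 6 libraries labelled *Ahr*-/- lay above all 6 WT libraries. The difference was 0.85 (SE 0.10, limma adjusted p = 5.37e-05), and it was 0.80 without both F3 libraries (adjusted p = 0.000986). *Dusp16* (chromosome 6, 134715468 to 134807063), a phosphatase of JNK and p38 that shuttles between nucleus and cytoplasm, lay between 10.03 and 11.38 (median 10.87) in WT and between 11.30 and 12.48 (median 11.90) in the *Ahr*-/- label. In words, 5 of the 6 libraries labelled *Ahr*-/- were above every WT library and the lowest, M3, was just under WT F2. The difference was 1.13 (SE 0.19, limma adjusted p = 0.00118), and it was 1.16 without both F3 libraries (adjusted p = 0.00882).

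*Dusp10* (chromosome 1, 184034381 to 184075636), another phosphatase of JNK and p38, lay between 6.50 and 7.32 (median 7.06) in WT and between 7.03 and 8.05 (median 7.71) in the *Ahr*-/- label. The groups overlapped, and 4 of the 6 libraries labelled *Ahr*-/- lay above all of WT. The difference was 0.65 (SE 0.13, limma adjusted p = 0.00511), and 0.64 without both F3 libraries (adjusted p = 0.0255).

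Among the GADD45 genes, *Gadd45g* (chromosome 13, 51846675 to 51848475) lay between 6.03 and 6.54 (median 6.29) in WT, where the libraries held 13 to 33 counts, and between 7.39 and 8.90 (median 8.005) in the *Ahr*-/- label, where they held 96 to 442. The lowest library labelled *Ahr*-/- was well above the highest WT library. The difference was 1.75 (SE 0.17, limma adjusted p = 4.39e-06), and 1.57 without both F3 libraries (adjusted p = 2.17e-05). *Dusp6* and *Gadd45g* were the 2 of the 9 tested genes without overlap in this direction, which held for 2.62% of all genes tested.

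*Gadd45a* (chromosome 6, 67035096 to 67037407), which p53 and other stress pathways induce, lay between 10.26 and 11.69 (median 11.01) in WT and between 11.28 and 12.46 (median 11.77) in the *Ahr*-/- label. The groups overlapped, and the 3 females of the *Ahr*-/- label were the libraries above every WT library. The difference was 0.74 (SE 0.21, limma adjusted p = 0.0344). The call was not stable. It was lost without WT F1, F3 or M3 and without *Ahr*-/- F1, F2, F3 or M2 (adjusted p of 0.0551 to 0.0893), and without both F3 libraries the difference was 0.70 (adjusted p = 0.114). It was also lost without a minimum mean (adjusted p = 0.0737), without the sex covariate (0.0776) and with all 18 libraries in the fit (0.05004). *Gadd45b* (chromosome 10, 80930091 to 80932204), which NF-kappaB is known to induce, lay between 7.78 and 9.84 (median 8.55) in WT and between 7.76 and 10.65 (median 9.05) in the *Ahr*-/- label. Its groups overlapped broadly, and the difference of 0.49 (SE 0.29) did not pass (limma adjusted p = 0.318). It was 0.24 without WT F1 and did not pass either at 0.54 without both F3 libraries (adjusted p = 0.393).

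**Figure D2:**
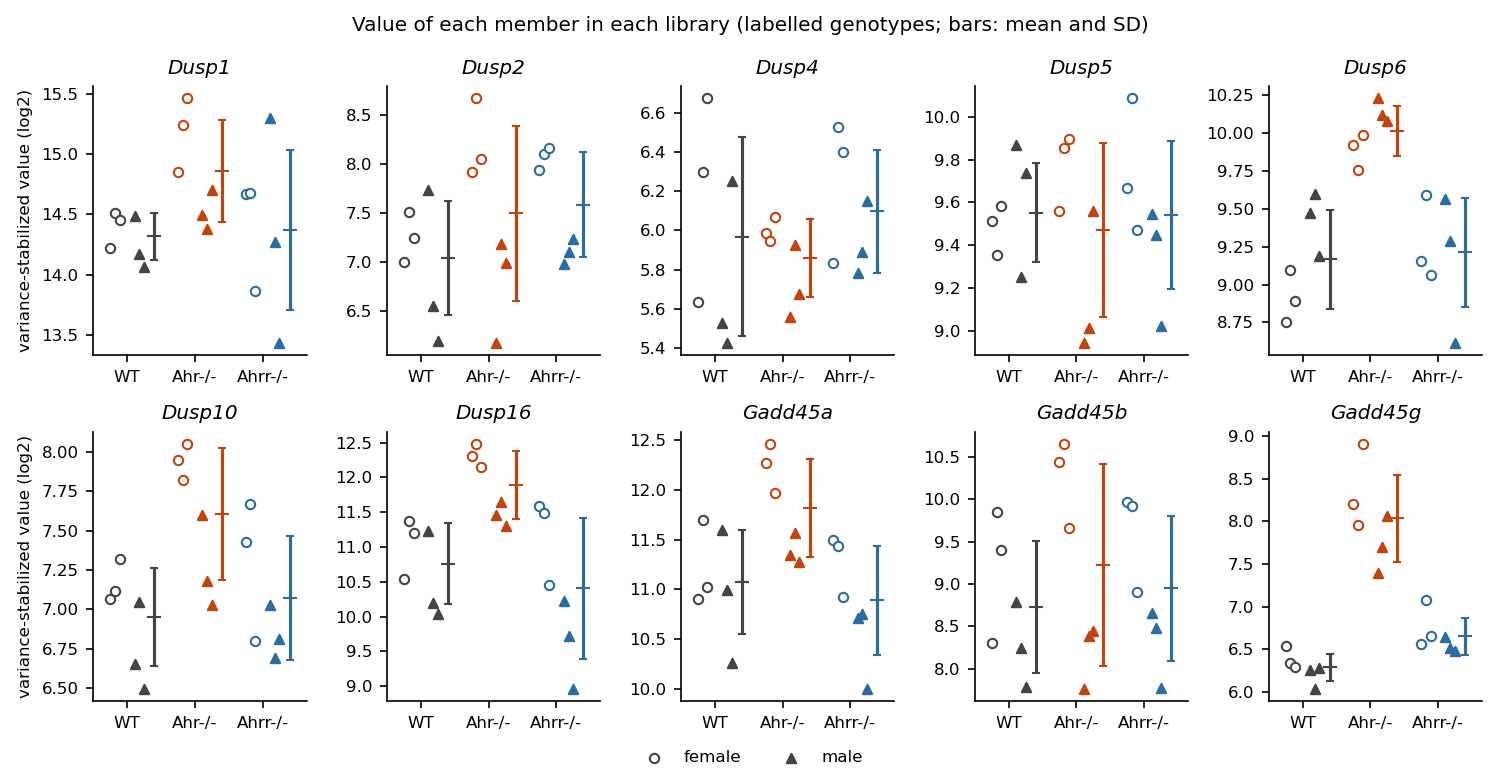
Variance-stabilized value (log2) of each of the 10 genes in each of the 18 libraries by labelled genotype, with females as open circles, males as triangles, and bars for the mean and SD of 6 libraries. *Dusp6* and *Gadd45g* separate the *Ahr*-/- label from WT without overlap, and in *Gadd45b* the females of the *Ahr*-/- label (9.66 to 10.65) lie above its males (7.76 to 8.45).

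Marker lists moved with the same groups. In the *Ahr*-/- label, 2 of 5 tested eosinophil markers and 1 of 5 tested neutrophil markers were called higher, and the summed levels of both lists did not overlap WT. Of 7 goblet and Paneth markers, 3 were called lower, as were 2 of 6 acinar markers and 1 of 2 endothelial markers, and 1 of 8 macrophage and dendritic cell markers was called higher. None of 9 enterocyte, 2 fibroblast and 3 B and plasma cell markers was called. The part of these lists in the rise of the 5 genes was not tested. The all-gene count of 1003 was 623 without *Ahr*-/- F1 and 586 without both F3 libraries.

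Other genes of the pathway were read from 12 fixed lists, and most did not pass. In the *Ahr*-/- label the ERK pathway inhibitor *Spry2* rose, 1 of 3 Sprouty and Spred genes tested, from a mean normalized count of 17.2 to 54.5 (difference 0.71, SE 0.14, limma adjusted p = 0.00394). Its WT mean lay at the minimum needed for a test, so it was tested because of its level in the *Ahr*-/- label. *Mapk4*, an atypical MAP kinase, rose by 0.78 (adjusted p = 0.00969), 1 of 10 MAP kinases, with mean normalized counts of 35.3 and 87.8 and a difference of 1.54 on log2(normalized count + 1). The MAP3 kinase *Map3k3*, which acts upstream of ERK5 and p38, rose by 0.41 (adjusted p = 0.00929). Among 16 immediate early genes, the nuclear receptor *Nr4a1* rose by 0.92 (adjusted p = 0.0269), and the stress factor *Atf3* differed by -1.42 (limma adjusted p = 3.40e-06). *Plk2*, a polo-like kinase induced by p53, rose by 1.33 (limma adjusted p = 0.00438), 1 of 11 p53 target genes, and *Ddit4*, an inhibitor of mTOR signaling, differed by -0.56 (limma adjusted p = 0.0355), 1 of 7 integrated stress response genes.

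Neither other MAPK phosphatases (1 tested) nor atypical dual-specificity phosphatases (5), MAP2 kinases (7), MAPK-activated kinases (10), scaffolds (2) or GADD45 partners (7) had a gene called by limma. Unadjusted p values below 0.05 were found for 1, 0, 1, 2, 0 and 2 of them, and limma voom called 0, 0, 0, 0, 0 and 1. Over all 11346 genes tested, 2638 had an unadjusted p below 0.05 in limma, and limma voom called 960. List medians lay between -0.14 (integrated stress response) and 0.27 (other MAPK phosphatases), as the plot of lists shows.

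**Figure D3:**
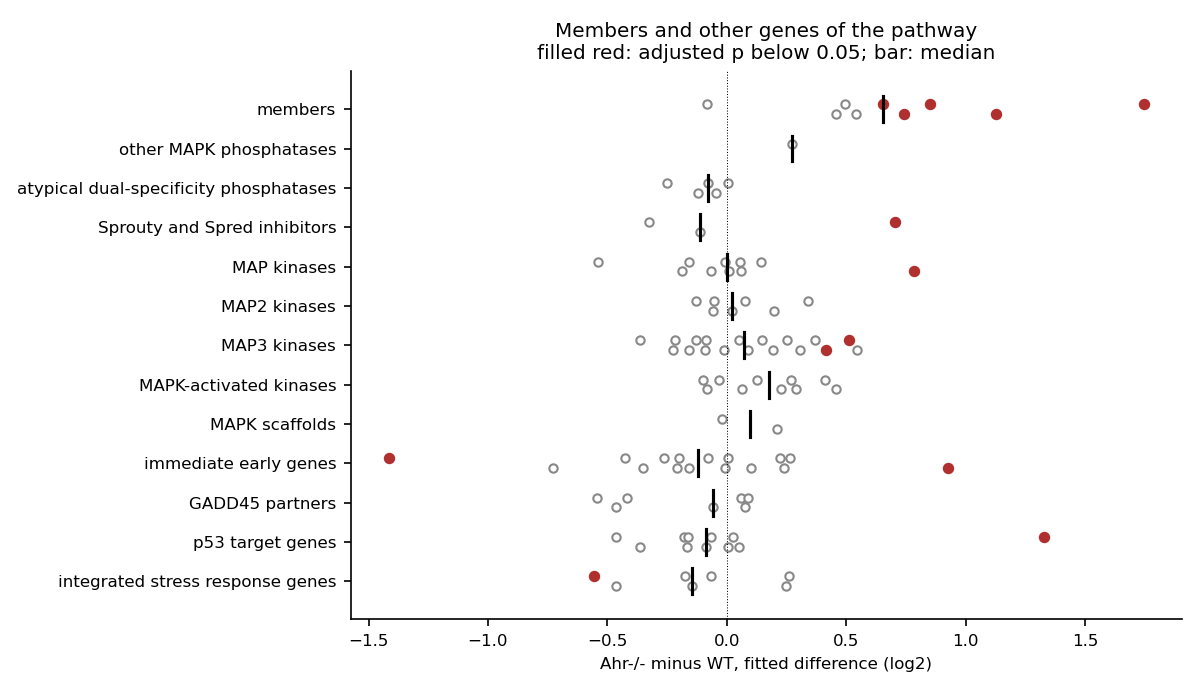
Fitted difference between the *Ahr*-/- label and WT (log2) for each tested gene of the 10 (top line) and of 12 other pathway lists, with called genes filled and the median of each list as a bar. The median of the 9 tested genes is 0.65, and those of the other lists lie between -0.14 and 0.27.

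Some of these calls rested on single libraries or settings. *Nr4a1* was not called without WT F3 or M3 or without *Ahr*-/- F1, F2 or M3 (adjusted p of 0.0568 to 0.0665 from limma). *Ddit4* was called only when WT F2 or *Ahr*-/- F3 was the library left out, and otherwise reached adjusted p values of 0.0542 to 0.0938. Without both F3 libraries, *Map3k3* (adjusted p = 0.0514) and *Nr4a1* (0.0905) were not called either, whereas *Atf3* (8.61e-05), *Spry2*, *Mapk4* and *Plk2* (each 0.0252) and *Ddit4* (0.0355) were. Among the other settings, *Map3k3* was lost with all 18 libraries in the fit (0.0902), and *Nr4a1* without a minimum mean (0.0605) and without the sex covariate (0.115). *Ddit4* was lost without a minimum mean (0.0795), with limma voom (0.0601), without the sex covariate (0.300) and with all 18 libraries (0.235).

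The libraries labelled *Ahrr*-/- were compared with the same WT libraries, to ask what differs when the repressor of AHR is lacking. All 10 genes could be tested and 0 were called. At an unadjusted p below 0.05 there were 2, *Dusp2* and *Gadd45g*, and limma voom called 0. Across all 11546 genes tested, 0.0779% were called, which is 9 genes, with 853 at an unadjusted p below 0.05 and 4 by limma voom. Of the 10 differences, 7 were positive, and the median was 0.09 against 0.01 over all genes tested.

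*Gadd45g* lay between 6.48 and 7.07 (median 6.60) in the *Ahrr*-/- label, against 6.03 to 6.54 in WT. The groups overlapped, with 4 of the 6 libraries labelled *Ahrr*-/- above all of WT. Within each sex all 3 libraries labelled *Ahrr*-/- lay above all 3 of WT, which held for 0.554% of all 11546 genes tested. Its difference was 0.37 (SE 0.13, limma adjusted p = 0.583), with a ratio of mean normalized counts of 1.74. *Dusp2* lay between 6.98 and 8.16 (median 7.58) in the *Ahrr*-/- label and between 6.19 and 7.73 (median 7.12) in WT. Here too the groups overlapped, and the difference of 0.55 (SE 0.22) had an adjusted p of 0.619 from limma, with a ratio of 1.72. The other 8 differences ran from -0.36 for *Dusp16* (95% interval -1.004 to 0.29) to 0.22 for *Gadd45b* (-0.38 to 0.82), so these data set no narrow bound on either. Single libraries moved them: *Dusp16* was at -0.14 without WT M1 and -0.15 without *Ahrr*-/- M3, *Gadd45a* (-0.19) at -0.0146 without WT M1, and *Gadd45b* at 0.00553 without WT F1. For *Dusp6* the interval was -0.35 to 0.44, and for *Dusp4*, tested only here, the difference was 0.13 (SE 0.20).

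*Dusp16* was also the most scattered of the 10 in this label, between 8.96 and 11.58 (median 10.34). It was highest in females F1 and F2 and lowest in male M3, the library with the lowest eosinophil marker sum (14322). *Gadd45a* lay between 9.996 and 11.49 (median 10.84) with its lowest value in the same library. M3 also held the lowest value of this label for *Dusp1* (13.43), *Dusp5* (9.02), *Dusp6* (8.61), *Gadd45b* (7.78) and *Gadd45g* (6.48). It was among the libraries with the highest epithelial sums. The share of all genes that were lowest in M3 was not counted, so these minima are not particular to the genes described here. Of the marker lists, neutrophil markers had 2 of 5 called higher, while enterocyte, goblet and Paneth, acinar, fibroblast, endothelial, macrophage, B cell and eosinophil lists had 0 called by limma. The part of other cells in these values was not tested. None of the 92 tested genes of the 12 pathway lists was called by limma (7 at an unadjusted p below 0.05, 0 by limma voom), and list medians lay between -0.09 (MAPK scaffolds) and 0.32 (Sprouty and Spred inhibitors). The all-gene count of 9 was 4 without WT F1, F2, M2 or M3 and without *Ahrr*-/- F2, M2 or M3, 5 without *Ahrr*-/- F3 and 25 without *Ahrr*-/- F1. It was between 4 and 18 under the other settings, with 18 under sample weights.

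The knockout labels were then compared with each other. This comparison shares its libraries with both comparisons to WT, so its values are not independent of theirs. Of 9 genes tested, the same 5 that rose in the *Ahr*-/- label over WT were called, all lower in the *Ahrr*-/- label. *Gadd45g* was 4.59-fold higher in the *Ahr*-/- label by mean normalized counts, *Dusp16* 2.47-fold, *Gadd45a* 1.92-fold, *Dusp6* 1.79-fold and *Dusp10* 1.73-fold. Across all 11474 genes tested, 14.9% were called, and 6.84% were called higher in the *Ahr*-/- label. The median difference of the 9 was -0.53, against -0.0026 over all genes.

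*Dusp16* differed by -1.49 (SE 0.24, limma adjusted p = 0.00108) and *Gadd45a* by -0.93 (SE 0.16, limma adjusted p = 0.00216). In both, 4 of the 6 libraries labelled *Ahrr*-/- lay below every library labelled *Ahr*-/-. *Gadd45g* differed by -1.38 (SE 0.18, adjusted p = 0.000165) and *Dusp6* by -0.80 (SE 0.16, limma adjusted p = 0.00534). For these 2 genes, all libraries labelled *Ahr*-/- lay above all of those labelled *Ahrr*-/-, which held for 3.01% of all genes tested. *Dusp10* differed by -0.53 (SE 0.16, limma adjusted p = 0.0346), with overlap. Its call was lost without *Ahr*-/- F1, F2, F3, M1 or M2 and without *Ahrr*-/- F3, M2 or M3 (adjusted p of 0.0526 to 0.0869), without a minimum mean (0.0609) and without the sex covariate (0.115). *Dusp1* (-0.49, adjusted p = 0.264), *Gadd45b* (-0.27, adjusted p = 0.473), *Dusp2* (0.09, adjusted p = 0.772) and *Dusp5* (0.07, limma adjusted p = 0.780) were not called. The sign of *Dusp2* turned without *Ahr*-/- M1 (-0.07).

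Side by side, *Gadd45g* differed from WT by 1.75 in the *Ahr*-/- label and by 0.37 in the *Ahrr*-/- label. For *Dusp6* these values were 0.85 and 0.05, for *Dusp16* 1.13 and -0.36, for *Dusp10* 0.65 and 0.12, and for *Gadd45a* 0.74 and -0.19. Both differences use the same 6 WT libraries, as the plot of differences by comparison shows.

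**Figure D4:**
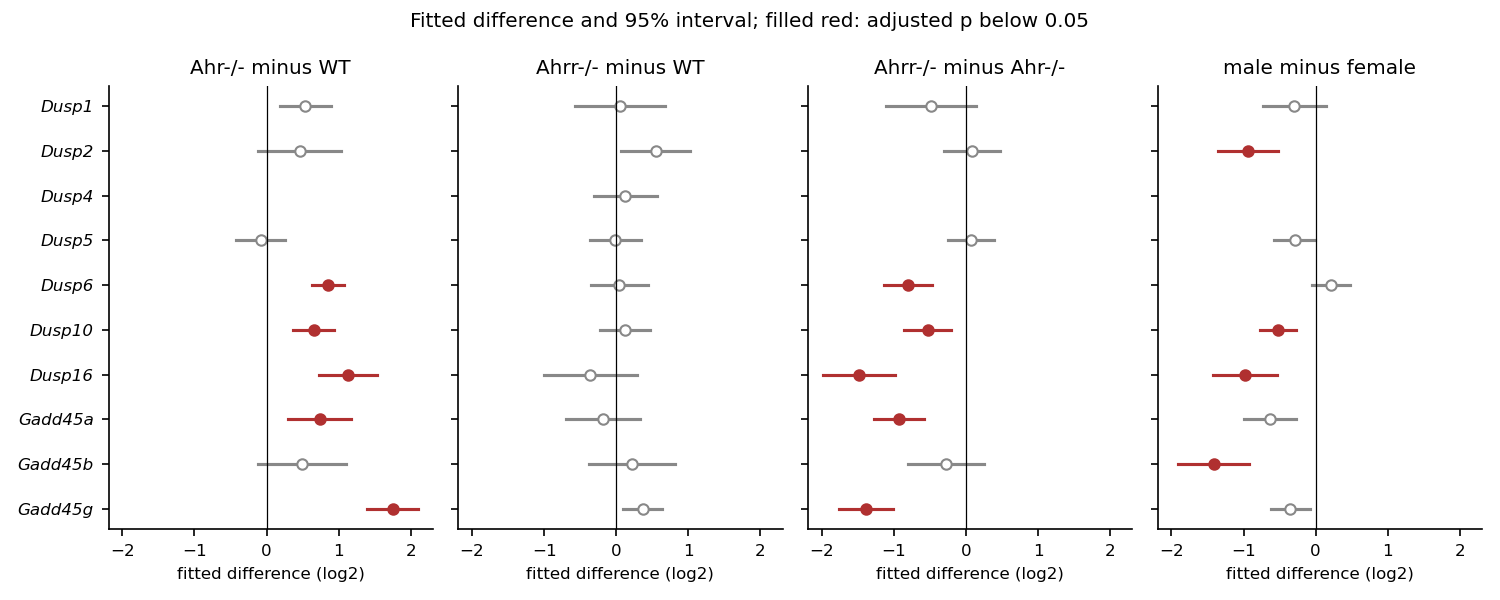
Fitted log2 differences of the 10 genes with 95% intervals in the 3 genotype comparisons and between the sexes, with called genes filled. *Gadd45g* is at 1.75 for the *Ahr*-/- label over WT and at 0.37 for the *Ahrr*-/- label over WT, and the 4 genes called between the sexes lie at -0.52 or below.

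Marker lists differed here as well. In the *Ahrr*-/- label, 4 of 5 eosinophil markers were called lower, 6 of 7 goblet and Paneth markers and 2 of 9 enterocyte markers were called higher, and 2 of 5 neutrophil markers were called higher and 1 lower. Of the acinar (3), fibroblast (4), endothelial (4), macrophage (9) and B cell (3) markers tested, 1 in each list was called higher. Their part in the differences of the 5 genes was not tested. The all-gene count of 1708 was 2574 without *Ahrr*-/- F1. It was 907 without *Ahr*-/- F1, 970 without F2, 839 without M1, 933 without M2 and 818 without M3 of that label, and 1001 without *Ahrr*-/- F3 and 923 without *Ahrr*-/- M3. With a minimum mean of 3 it was 828, and without the sex covariate 994.

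In the pathway lists, the MAP3 kinases *Map3k5* and *Braf* differed by -0.61 and -0.56. Of the MAP kinases, *Mapk4* differed by -0.82 and *Mapk13*, a p38 isoform, by 0.84. The MAP2 kinase *Map2k6*, which activates p38, differed by -0.41, and the ribosomal S6 kinase genes *Rps6ka2* and *Rps6ka5* by -0.58 and -0.42. Of 6 atypical dual-specificity phosphatases, *Dusp3* was higher by 0.71 in the *Ahrr*-/- label (mean normalized counts of 10.2 and 43.0). Its mean in the *Ahr*-/- label, 5.78, lay below the minimum, so it was tested only because of its level in the *Ahrr*-/- label (6.49), and the call is to be read with that selection in mind. Among the immediate early genes, *Atf3* differed by 1.88 and *Nr4a1* by -0.70. *Plk2* differed by -1.19, the cell cycle inhibitor *Cdkn1a* by 0.76, the cyclin *Ccnb1* by 0.88, and the integrated stress response genes *Asns* and *Ddit3* by 0.88 and 0.44. All of these passed an adjusted p of 0.05 in limma. Other MAPK phosphatases (1 tested), Sprouty and Spred inhibitors (3) and scaffolds (2) had 0 genes called by limma, with 0, 2 and 1 at an unadjusted p below 0.05 and 0 by limma voom. Over all 11474 genes tested, 3760 had an unadjusted p below 0.05 in limma, and limma voom called 1230. List medians lay between -0.18 (scaffolds) and 0.36 (GADD45 partners).

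The calls of *Mapk4*, *Map3k5*, *Atf3*, *Plk2*, *Ccnb1* and *Asns* were kept whichever library was left out, and the others were not. *Cdkn1a* was lost without *Ahr*-/- M1 or M3 (adjusted p of 0.0506 to 0.0524 from limma). *Braf* was lost without *Ahr*-/- F1, F2, M1, M2 or M3 or *Ahrr*-/- F2, F3, M1 or M3 (0.0502 to 0.108). *Mapk13* was lost without *Ahr*-/- F1, F2, M1, M2 or M3 or *Ahrr*-/- M3 (0.0541 to 0.0600), and *Map2k6* without *Ahr*-/- F1, F2, M1, M2 or M3 or *Ahrr*-/- F3 or M2 (0.0546 to 0.0691). *Rps6ka2* was lost without *Ahr*-/- F1, F2, M1, M2 or M3 or *Ahrr*-/- F3, M1 or M3 (0.0536 to 0.0927), and *Rps6ka5* without *Ahr*-/- F1, F2, M2 or M3 or *Ahrr*-/- F3, M2 or M3 (0.0517 to 0.0768). *Dusp3* was lost without *Ahr*-/- F1, F2, M1, M2 or M3 or *Ahrr*-/- F3, M1 or M3 (0.0627 to 0.0947). *Nr4a1* was lost without *Ahr*-/- F1, F2, M2 or M3 or *Ahrr*-/- F2, F3 or M3 (0.0563 to 0.113), and *Ddit3* without *Ahr*-/- F1, M1 or M2 or *Ahrr*-/- F3 or M3 (0.0504 to 0.0649).

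Other settings ended some of these calls as well. Without the sex covariate, *Nr4a1* (limma adjusted p = 0.212), *Cdkn1a* (0.0797), *Braf* (0.0774), *Ddit3* (0.0646), *Dusp3* (0.0598), *Rps6ka5* (0.0587), *Rps6ka2* (0.0574) and *Mapk13* (0.0519) were lost. Without a minimum mean, *Nr4a1* (0.0782), *Braf* (0.0779), *Dusp3* (0.0712), *Rps6ka2* (0.0604), *Ddit3* (0.0587) and *Map2k6* (0.0561) were lost. With limma voom, *Dusp3* (0.0928), *Braf* (0.0745), *Mapk13* (0.0538) and *Map2k6* (0.0534) were lost. *Dusp3* was also lost with quantile normalization (0.0623) and sample weights (0.103), and *Ddit3* with quantile normalization (0.0811) and median centring (0.0540). With a robust trend *Braf* (0.0509) and *Nr4a1* (0.0508) were lost, as they were with all 18 libraries (0.0505 and 0.0683), and *Nr4a1* also with a minimum mean of 3 (0.0518).

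Sex was compared within genotypes over all 18 libraries. Of 9 genes tested, 4 were called, all lower in males. *Gadd45b* was 3.30-fold higher in females by mean normalized counts, *Dusp2* 2.58-fold, *Dusp16* 1.89-fold and *Dusp10* 1.78-fold. Across all 11468 genes tested, 3.06% were called, and 2.46% were called higher in females. The median difference of the 9 was -0.52, against 0.01 over all genes tested, and *Dusp6* was the single one with a positive sign (0.22, limma adjusted p = 0.372).

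*Gadd45b* lay between 8.31 and 10.65 (median 9.84) in females and between 7.76 and 8.79 (median 8.39) in males. The sexes overlapped, with 4 of 9 males below every female. The male minus female difference was -1.42 (SE 0.24, limma adjusted p = 0.00484). *Dusp16* lay between 10.46 and 12.48 (median 11.49) in females and between 8.96 and 11.65 (median 10.22) in males, and 5 of 9 males were below every female. Its difference was -0.98 (SE 0.21, limma adjusted p = 0.0175). *Dusp2* lay between 7.00 and 8.67 (median 7.93) in females and between 6.17 and 7.73 (median 6.98) in males, again with 5 males below every female, and differed by -0.94 (SE 0.20, limma adjusted p = 0.0153).

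*Dusp10* lay between 6.80 and 8.05 (median 7.43) in females and between 6.50 and 7.60 (median 7.03) in males. The sexes overlapped in most libraries. Its difference of -0.52 (SE 0.12, limma adjusted p = 0.0245) was not called without WT M3, *Ahr*-/- F1, M2 or M3 or *Ahrr*-/- F2 (adjusted p of 0.0503 to 0.0594), nor without both F3 libraries (0.0705) or without a minimum mean (0.0542). *Gadd45a* differed by -0.63 (SE 0.17) and missed the threshold (limma adjusted p = 0.0528), and it passed without WT F1 (0.0209), WT F3 (0.0478), WT M1 (0.00600) or *Ahrr*-/- F3 (0.0380), with a minimum mean of 3 (0.0425) and with quantile normalization (0.0477). *Gadd45g* differed by -0.35 (adjusted p = 0.152) and *Dusp5* by -0.29 (limma adjusted p = 0.260). Without both F3 libraries, *Gadd45b* (-1.46), *Dusp16* (-1.03) and *Dusp2* (-0.97) were called, at adjusted p values of 0.0143, 0.0379 and 0.0348. The all-gene count of 351 was 163 without a minimum mean and, with single libraries left out, ranged from 142 without *Ahr*-/- M1 to 733 without WT F1. It also moved by more than 1.5 times without WT M1 (595), *Ahrr*-/- F3 (577), WT F2 (181), WT M3 (160), *Ahr*-/- F1 (205), F2 (159), M2 (180) or M3 (211), and *Ahrr*-/- F1 (206), F2 (173) or M3 (188).

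The sex difference of each gene was also read within each label. In the *Ahr*-/- label, all 3 females lay above all 3 males for 6 of the 9 tested genes (*Dusp1*, *Dusp2*, *Dusp10*, *Dusp16*, *Gadd45a* and *Gadd45b*), which held for 12.2% of all 11468 genes tested. The reverse held for *Dusp6* and for 11.6% of all genes. *Gadd45b* ran from 9.66 to 10.65 in those females and from 7.76 to 8.45 in those males. In the *Ahrr*-/- label, females lay above males for 4 of the 9 (*Dusp2*, *Dusp16*, *Gadd45a* and *Gadd45b*) and for 7.84% of all genes, and the reverse held for 0 of the 9 and for 3.71%. In WT, females lay above males for *Dusp10* and *Gadd45g* and for 3.99% of all genes, and below them for *Dusp6* and for 4.94%. With 3 libraries against 3, such separation can also arise by chance, and it was not tested.

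Marker lists also moved with sex. In the *Ahr*-/- label, macrophage and dendritic cell markers summed to 1418 to 1800.3 in females and 3139 to 6402 in males, without overlap. Eosinophil markers summed there to 44676 to 49555 in females and 38503 to 44543 in males, and endothelial markers to 2126 to 2329 and 1871 to 2078, with females above males in both. In WT, fibroblast markers summed to 86.6 to 202 in females and 49.8 to 84.8 in males. All other lists overlapped between the sexes in every label. Over the 18 libraries, 2 of 9 macrophage and dendritic cell markers (*H2-Aa* and *H2-Ab1*) were called higher in males and 1 of 5 neutrophil markers (*Ltf*) lower, by limma. The part of these lists in the sex differences of *Gadd45b*, *Dusp16*, *Dusp2* and *Dusp10* was not tested.

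Whether a genotype difference depended on sex was tested with an interaction term, and none of the 10 genes was called. For the *Ahr*-/- label, 0% of 11346 genes were called by limma, with 533 at an unadjusted p below 0.05 and 0 by limma voom. For the *Ahrr*-/- label, 0% of 11546 genes were called, with 544 at an unadjusted p below 0.05 and 0 by limma voom. Of the genes described here, 2 had an unadjusted p below 0.05 for the *Ahr*-/- label and 0 for the *Ahrr*-/- label, and limma voom called 0 of them for either. In females *Gadd45b* differed from WT by 1.06 in the *Ahr*-/- label, and in males by -0.07. The male effect minus the female effect was -1.14 (95% interval -2.22 to -0.05, limma adjusted p = 0.954). *Dusp5* gave -0.73 (95% interval -1.31 to -0.15, limma adjusted p = 0.954), from a female difference of 0.28 and a male difference of -0.45. *Gadd45g*, *Dusp16* and *Dusp6* were higher in the *Ahr*-/- label than in WT without overlap within each sex, which held for 3.99% of all 11346 genes tested. *Gadd45g* differed by 1.97 in females and 1.53 in males, *Dusp16* by 1.27 and 0.98, and *Dusp6* by 0.97 and 0.72. A missed threshold does not show that the sexes responded alike.

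Several pathway genes were also called lower in males. Of 16 immediate early genes, 6 were, and the 3 largest were *Nr4a3* (-1.26), *Nr4a1* (-0.91) and *Nr4a2* (-0.82). The list median was -0.47. Of 7 integrated stress response genes, *Ppp1r15a* (-0.84), *Ddit4* (-0.75) and *Atf4* (-0.48) were called. The p38-activated kinases *Mapkapk2* (-0.99) and *Mapkapk3* (-0.47), the atypical MAP kinase *Mapk6* (-0.64) and *Cdkn1a* (-0.68) were called too, all by limma. Among the MAP2 kinases (7), MAP3 kinases (18), other MAPK phosphatases (1), atypical dual-specificity phosphatases (6), Sprouty and Spred inhibitors (3) and scaffolds (2), 0 genes were called by limma, with 1, 1, 0, 0, 1 and 1 at an unadjusted p below 0.05. Over all 11468 genes tested, 2145 had an unadjusted p below 0.05 in limma, and limma voom called 391.

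Of these sex calls, those of *Nr4a3*, *Ppp1r15a*, *Mapkapk2* and *Mapk6* were kept whichever library was left out. *Cdkn1a* was lost without *Ahr*-/- M1 (limma adjusted p = 0.0529), and *Nr4a1* without WT F2 or M3 or *Ahr*-/- F2 or M1 (0.0550 to 0.0573). *Mapkapk3* was lost without WT F2 or M3, *Ahr*-/- F2 or M1 or *Ahrr*-/- F1, F2 or M3 (0.0502 to 0.0582). *Atf4* was lost without WT M2 or M3, *Ahr*-/- F1, F2, F3, M1 or M2 or *Ahrr*-/- F2, M2 or M3 (0.0517 to 0.0836). *Nr4a2* was lost without WT F2, F3, M2 or M3, any of the 6 libraries labelled *Ahr*-/- or *Ahrr*-/- F1, F2, M2 or M3 (0.0502 to 0.0930). *Ddit4* was lost without WT F2, F3, M2 or M3, any of the 6 libraries labelled *Ahr*-/- or *Ahrr*-/- F2, M2 or M3 (0.0521 to 0.0950). Without both F3 libraries, *Mapkapk3* (limma adjusted p = 0.0667), *Nr4a2* (0.0744), *Atf4* (0.0736) and *Ddit4* (0.126) were not called. Without a minimum mean, *Ddit4* (0.0976), *Nr4a2* (0.0820), *Atf4* (0.0661) and *Nr4a1* (0.0511) were not called, nor was *Atf4* with quantile normalization (0.0889).

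The genes were then compared with each other over the 18 libraries, after the mean of each genotype and sex was removed. Of 36 pairs among the 9 genes that passed the minimum mean, 29 had a positive Pearson r, with a median of 0.41, and 3 passed an adjusted p of 0.05 (two-sided permutation tests, Benjamini-Hochberg over the 36 pairs). These 3 pairs joined *Gadd45a*, *Gadd45b* and *Dusp16*. *Gadd45a* and *Dusp16* had r = 0.86 (permutation p = 0.00013, adjusted p = 0.00468) and Spearman's rho = 0.849 (permutation p = 0.00026, adjusted p = 0.00882), and without the 2 libraries farthest from the median r was 0.831. *Dusp16* and *Gadd45b* had r = 0.84 (permutation p = 0.00057, adjusted p = 0.00684) and rho = 0.868 (permutation p = 0.00049, adjusted p = 0.00882), and r was 0.792 without 2 libraries. *Gadd45a* and *Gadd45b* had r = 0.83 (permutation p = 0.00048, adjusted p = 0.00684) and rho = 0.812 (permutation p = 0.00189, adjusted p = 0.0227), and r was 0.845 without 2 libraries.

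Within WT, the *Ahr*-/- label and the *Ahrr*-/- label, r was 0.86, 0.94 and 0.93 for *Gadd45a* with *Dusp16*, 0.89, 0.50 and 0.98 for *Dusp16* with *Gadd45b*, and 0.82, 0.75 and 0.95 for *Gadd45a* with *Gadd45b*. Each of these relations was thus positive in each label. *Gadd45g*, the gene with the largest genotype difference, did not go with them, with r of -0.05 with *Dusp16*, -0.19 with *Gadd45a* and -0.17 with *Gadd45b*. These values joined opposite signs. Within the labels in the same order, r of *Gadd45g* was -0.19, -0.74 and 0.37 with *Dusp16* and -0.27, -0.78 and 0.30 with *Gadd45a*. With *Gadd45b* it was -0.55, -0.38 and 0.37. With only the genotype mean removed, so that the sex difference enters, 16 of the 36 pairs passed.

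**Figure D5:**
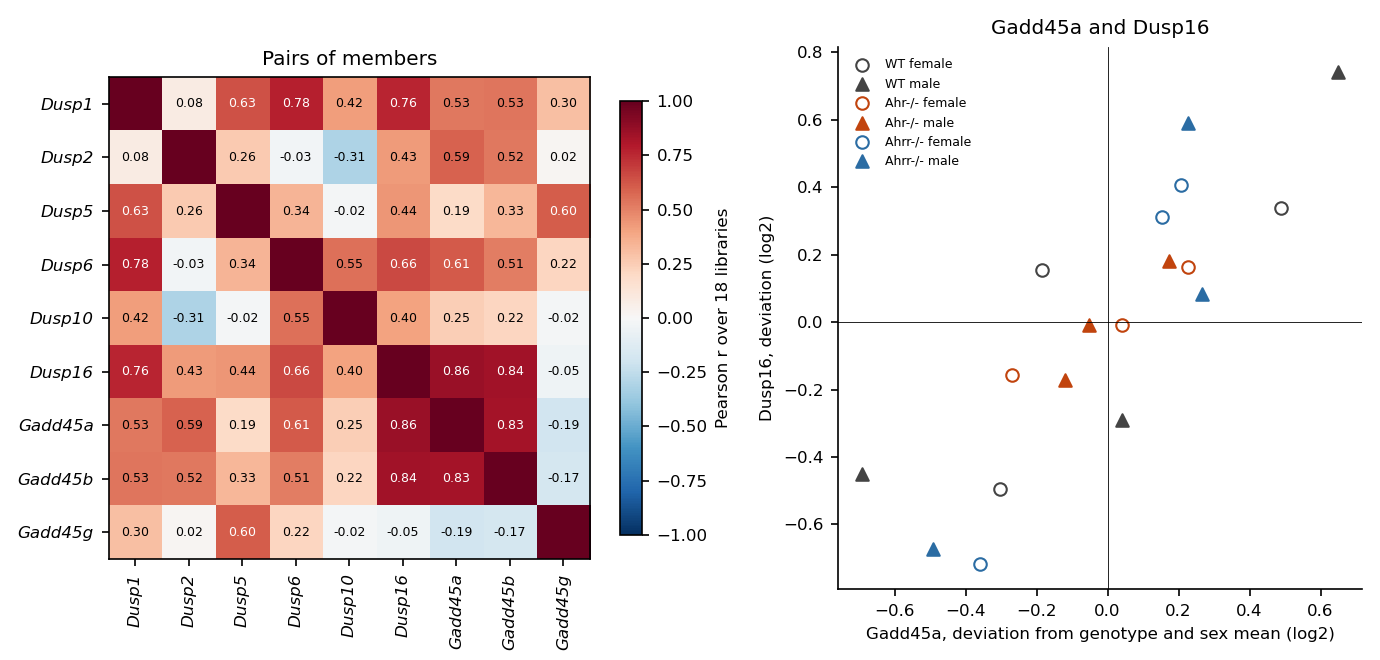
Pearson r between pairs of the 9 genes over 18 libraries after the mean of each genotype and sex was removed (left), and the deviations of *Gadd45a* and *Dusp16* in each library (right, log2). The 3 pairs among *Gadd45a*, *Gadd45b* and *Dusp16* have r of 0.83 to 0.86, whereas *Gadd45g* has r of -0.19 to -0.05 with these 3.

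Each of the 9 genes was also compared with the mean of 16 immediate early genes, which warm digestion of tissue and sorting are known to induce. Of 9 relations, 8 were positive and 0 passed an adjusted p of 0.05 (two-sided permutation tests). The highest was that of *Dusp5*, with r = 0.768 (permutation p = 0.00891, adjusted p = 0.0802), rho = 0.738 (permutation p = 0.011, adjusted p = 0.0797) and r = 0.703 without the 2 farthest libraries. Within WT, the *Ahr*-/- label and the *Ahrr*-/- label it was 0.61, 0.93 and 0.72. With only the genotype mean removed, 7 of 9 passed, so the relation depended on whether the sexes were set equal.

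For the 5 genes called between genotypes and for *Dusp1*, the most abundant phosphatase, the genes most like each were sought among 11468 genes over the same 18 libraries, by Pearson r of the deviations from the mean of genotype and sex. *Gadd45a* was most like *Plk2* (0.96), *Art2a* (0.96) and *Pik3ap1* (0.96). *Dusp16* was most like *Exoc2* (0.96), *Cbarp* (0.96) and *Cd80* (0.93), and *Dusp1* most like *Cd44* (0.96), *Myadm* (0.95) and *Smpdl3a* (0.93). *Dusp6* was most like *A430046D13Rik* (0.91), *8030462N17Rik* (0.89) and *Pde4a* (0.89), *Dusp10* most like *D630023F18Rik* (0.90), *Capn1* (0.88) and *Ggcx* (0.82), and *Gadd45g* most like *Aar2* (0.91), *Alyref* (0.88) and *Mknk2* (0.86). These values describe likeness over 18 libraries and were picked as the highest, so they carry no test.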

How the data were processed

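Bulk RNA of sorted small intestinal eosinophils was read from the table that the authors deposited, which holds variance-stabilized log2 values made by the authors with STAR, RSEM and DESeq2 on GRCm38. Inverting the transformation gave whole counts for 100% of values (tolerance 0.0001), used for depth (3842977 to 12046933 per library) and normalized counts. Genes with a mean at least 1 above the lowest value were fitted with limma 3.58.1 in R 4.3.3 (trend, sex covariate, for the sex comparison genotype), and called at a Benjamini-Hochberg adjusted p below 0.05. The fit was tested on simulated data with 100 genes changed by 1 and 100 by 2 (log2) in each comparison. Of those changed by 1, it recovered 94 (*Ahr*-/- label over WT), 80 (*Ahrr*-/- label over WT), 86 (knockout labels) and 87 (sexes). The interaction fits recovered 39 (*Ahr*-/- label) and 13 (*Ahrr*-/- label). Of those changed by 2, 83 to 100 were recovered. The rest was done in Python 3.11.15 (scipy 1.17.1, numpy 2.4.6, matplotlib 3.10.9, pandas 2.3.3). Permutation tests used 100000 resamples. All 10 members are named. In each pathway list, called genes are named where 3 or fewer are called, otherwise the 3 with the largest difference. For likeness, the 3 genes with the highest r are named. The members and lists were chosen with earlier results of these data known. Alternatives were other minimum means (none or 3), median centring, quantile normalization, no or a robust trend, sample weights, the replicate block, log2(count + 1), limma voom, no sex covariate, all 18 libraries together, only the genotype mean removed before correlating, leaving out each library and, chosen after seeing the data, leaving out both F3 libraries (WT and *Ahr*-/-).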

Additional observations from a re-analysis of the deposited data

Results flagged for a closer look

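In the libraries labelled *Ahrr*-/-, the female F2 stood far above the others for *Gadd45g*, at 7.07 against 6.65 for the nearest library and 6.48 for the lowest. This was the 1 case among 36 groups of 6 libraries examined, and chance alone sets apart about 1 in 20 groups.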

How the results depend on the processing

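The number of the 10 genes called for the *Ahr*-/- label over WT, 5, was 4 to 6 under 13 alternatives and 4 to 7 when each library was left out in turn (7 without WT M1). For the *Ahrr*-/- label over WT it was 0 throughout. Between the knockout labels it was 5, and 3 with the minimum mean of 3, where 6 genes were tested. Otherwise it was 4 to 5 without any 1 library. The replicate block gave 5, 0 and 5 for these comparisons. Between the sexes it was 4, and 3 to 5 under every alternative. The interactions gave 0 throughout, and with limma voom their all-gene medians were 0.146 (*Ahr*-/- label) and 0.0685 (*Ahrr*-/- label). With only the genotype mean removed, 16 pairs of genes and 7 relations with the immediate early mean passed, since the sex difference then enters. Values that changed sign were not called in any fit. Several interaction terms changed sign as well, among them *Dusp16* in the *Ahr*-/- label (0.0816 without WT M1) and *Gadd45b* in the *Ahrr*-/- label (0.0564 without WT F1). For the *Ahrr*-/- label over WT, sample weights gave -0.0528 for *Dusp1*, -0.0629 for *Dusp6* and -0.0429 for *Dusp10*, and limma voom gave -0.0011 for *Dusp6*. Quantile normalization gave 0.0365 for *Dusp1* between the sexes. The cause was not tested. Other uncalled differences also rested on single libraries. Leaving out 1 library gave 0.30 to 0.72 for *Dusp2* in the *Ahr*-/- label over WT, -0.73 to -0.32 for *Dusp1* and -0.41 to -0.0771 for *Gadd45b* between the knockout labels, and -0.45 to -0.18 for *Dusp1* between the sexes. Leaving out each library gave -0.15 to 0.0149 for *Dusp5* in the *Ahr*-/- label over WT. For the *Ahrr*-/- label over WT it gave -0.17 to 0.25 for *Dusp1*, -0.12 to 0.0896 for *Dusp5* and -0.0599 to 0.20 for *Dusp6*. Between the knockout labels it gave -0.0731 to 0.22 for *Dusp2*. All genes called for the *Ahr*-/- label over WT fell to 553 with all 18 libraries in the fit. Depth limits *Dusp4* (2 to 52 counts per library) and *Gadd45g* in WT (13 to 33 counts).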
